A study of Physcomitrium patens with 4 samples.

Results

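Moss protonema of the pubs hy2 double mutant was compared with wild-type protonema in the dark, before the red light treatment. The comparison sets 1 pubs hy2 library against 1 wild-type library, 2 of the 4 libraries of the series. It covers all 32273 genes in the deposited files. Genes are described first where under 10% of their reads mapped to several places in both dark libraries. There were 30838 of these singly mapped genes, and 17256 of them had at least 50 reads over both dark libraries and are called measured. The other 13582 singly mapped genes fell below that minimum and are used only in counts of detected genes.

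Both lines are Physcomitrium patens, ecotype Gransden2004, and the tissue was chloronema from protonema, 10 days old per the labels. Cultures of both genotypes had been in the dark for 3 days and are labelled as the controls at time 0. The remaining 2 libraries came from wild type and pubs hy2 after 1 hour of red light (660 nm, 5 μmol per square metre per second, 25 °C), and serve here as a second pair of the same genotypes. Each group is 1 library. The labels do not say how many cultures were pooled or whether pubs hy2 is 1 clone.

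PUBS and HY2 are bilin reductases, enzymes that turn biliverdin into linear tetrapyrroles which phytochromes carry as their light-absorbing chromophore. A phytochrome without its bilin cannot switch between its red-absorbing inactive form and its far-red-absorbing active form, and the labels call the mutant phytochrome-deficient. In the dark most phytochrome is held in the inactive form in the wild type. The dark comparison therefore asks how the transcripts of both genotypes stood after 3 days in the dark, before the red light treatment.

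The identifiers in the files are not paired with gene names: 0 of them occur in the RefSeq gene table of this species that was used here. The PUBS and HY2 transcripts, photoreceptors, pathways and chloronema markers could not be picked out for that reason, and genes are ordered by the size of the difference, by level and by position in the identifier series. Up to 2 identifiers in each direction are given, and further genes are described by their rank and length. Reads on genes came to 17560594 in the wild-type library in the dark and 15098942 in the pubs hy2 dark library, against 24560044 and 22975721 in the red light pair. A gene at 0 reads was set to a floor of 3 reads in that library, 0.164 scaled CPM (reads relative to the TMM-scaled library total) in the wild type in the dark and 0.205 in the mutant in the dark. In bulk samples such as these, fewer cells of a type and less RNA per cell cannot be told apart.

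In the dark, the pubs hy2 library was higher for 2300 singly mapped genes and lower for 1783, 13.3% and 10.3% of the 17256 measured (23.7% in both directions). A gene was called when its fold was at least 2 and the exact 95% Clopper-Pearson counting interval of that fold left out 1. The interval covers the counting error of reads only, no p-value exists for 1 library a side, and the calls compare these libraries. The split between directions depended on how the libraries were scaled. Higher genes made up 56.3% of the calls with TMM factors (edgeR's trimmed mean of M values), and 44.1% (1941 higher and 2465 lower) when totals without the 100 most abundant genes were used. The median log2 fold of all measured genes was -0.08 with TMM and -0.25 in that alternative, and differences below are best read against this shift.

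**Figure D1:**
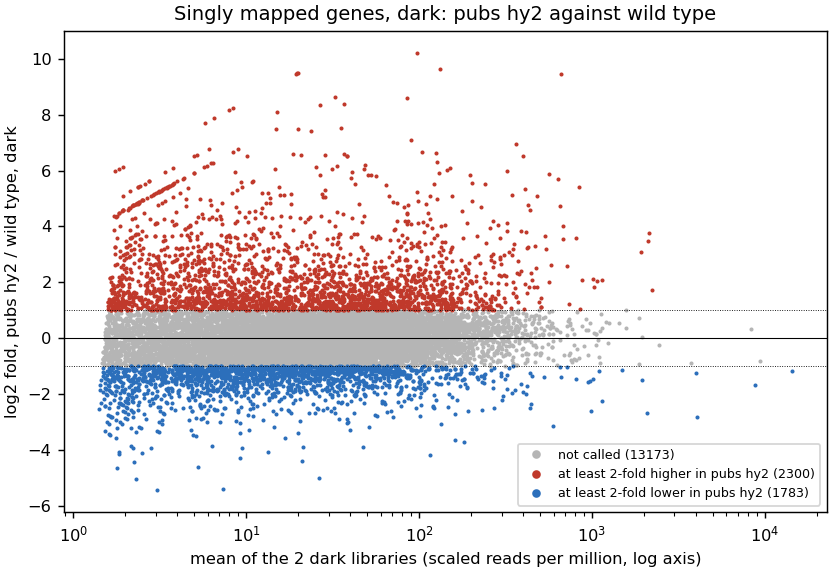
Each point is 1 of the 17256 measured singly mapped genes, with the mean scaled CPM of the dark libraries on a log axis across and the log2 fold of pubs hy2 over wild type in the dark upwards; dotted lines mark 2-fold. The 2300 higher genes reach log2 folds above 10, while the 1783 lower genes end near -5.4; the slanting lines of points at low levels are genes with 0 or very few wild-type reads.

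Large differences were mostly increases in the mutant library. At 4-fold or more, 958 singly mapped genes were higher and 292 lower, at 8-fold 471 and 57, at 16-fold 259 and 14, and at 32-fold 133 and 4. Beyond 64-fold there were 52 higher genes and 0 lower genes. This lean towards higher genes at 8-fold was present under each of the scalings tried, which gave between 432 and 491 higher and between 51 and 73 lower genes.

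The 471 genes at least 8-fold higher had a median level of 0.768 RPKM (reads scaled by gene length and by the library total, the authors' unit) in the wild type and 18.6 RPKM in the mutant. In the wild type 260 of them stood under 1 RPKM, 156 between 1 and 10 RPKM and 55 at 10 RPKM or more. In the mutant 309 of them reached 10 RPKM and 86 reached 100 RPKM. Together they took 0.434% of the reads on genes in the wild-type library in the dark and 6.36% in the pubs hy2 dark library. In the red light libraries, which did not choose these genes, they took 0.710% in the wild type and 5.96% in the mutant.

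The 57 genes at least 8-fold lower had a median of 8.14 RPKM in the wild type and 0.499 RPKM in the mutant. In the mutant 33 of them were under 1 RPKM and 2 were at 10 RPKM or more. They took 0.323% of wild-type dark reads and 0.0282% of pubs hy2 dark reads. After red light the shares were 0.223% and 0.0727%, so the red light libraries stood nearer to each other for these genes than the dark libraries that chose them.

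All 2300 higher genes together held 5.61% of the reads on genes in the wild-type library in the dark and 21.5% in the pubs hy2 dark library. The 1783 lower genes held 15.6% and 5.05%. The 13173 measured genes that were not called held 69.0% and 64.1%. The median level of higher genes was 4.63 RPKM in the wild type and 18.0 RPKM in the mutant, and that of lower genes 11.7 and 3.90 RPKM. Genes that were not called had medians of 13.2 and 11.5 RPKM.

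Pp1s257_73V6, a singly mapped gene of 1.719 kb, had the largest rise in scaled CPM. It had 5377 reads in the wild type in the dark, 5371 in the wild type after red light, 58562 in the mutant in the dark and 81635 in the mutant after red light. On the RPKM scale its levels were 158.5, 111.2, 2019 and 1839 in that order. Both pubs hy2 libraries lay far above both wild-type libraries. For genes picked on the dark pair, here and below, the dark part of such a separation follows from the choice. The share of all genes separated in this way was not counted. The dark fold was 13.7 (95% counting interval 13.3 to 14.0), and the fold in the red light pair was 17.0.

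Pp1s25_135V6 (0.770 kb) was the only gene that stood both among the 12 highest dark folds and among the 8 largest rises in scaled reads. Its levels were 2.30 RPKM in the wild type in the dark and 1.20 RPKM in the wild type after red light, against 1496 and 1909 RPKM in the mutant. It had 35 reads in the wild type in the dark and 19445 in the mutant. In the mutant the gene was higher after red light than in the dark, in the wild type lower.

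Pp1s67_30V6 (0.959 kb) had the largest fall in scaled reads and was the singly mapped gene with the highest level in the wild-type dark library. Its reads were 365701 in the wild type in the dark, 476233 in the wild type after red light, 128569 in the mutant in the dark and 253135 in the mutant after red light. On the RPKM scale these were 19325, 17672, 7944 and 10221. Both wild-type libraries were above both pubs hy2 libraries, which in the dark follows from its choice as the largest fall. The dark fold was 0.441 (0.438 to 0.443), 2.27-fold lower in the mutant, while the fold of 0.593 in red light did not reach 2-fold.

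Pp1s319_5V6 (0.941 kb), ranked 5 among the 8 largest falls in scaled reads, was lower in both pairs. It was picked out of the 8 with their values known. It stood at 3574 RPKM in the wild type in the dark and 3300 RPKM in the wild type after red light, against 524.8 and 798.0 RPKM in the mutant. From 66358 and 8334 reads, the dark fold was 0.157 (0.154 to 0.161), 6.35-fold lower, and the red light fold was 0.248. Its multi-mapping share was 3.86% and 4.04% in the dark libraries.

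The 12 highest dark folds ran from 290.8 to 1185, from between 0 and 35 reads in the wild type to between 232 and 19445 in the mutant. Their median level went from 0.129 RPKM in the wild type to 57.7 RPKM in the mutant. Of the 12, 1 was at 0 in the wild-type dark library, a gene of 2.094 kb with 949 reads in the mutant. Only counts of 0 were set to the floor of 3 reads. A gene at 0 therefore ranks below a gene at 1 read with equal mutant reads, and the number at 0 among the 12 depends on the floor. Against the floor of 3 reads it was 396.5-fold higher, and its counting interval began at 321.8-fold. With so few wild-type reads the intervals were wide: a gene of the 12 (0.999 kb) had 1 and 583 reads and with them a fold of 730.8 (130.6 to 28912). All 12 were also called higher in the red light pair, with folds from 7.95 to 1630 and a median of 95.05. Wild-type reads of the 12 ranged from 0 to 98 after red light.

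In the wild type some of these 12 genes had more reads after red light than in the dark, with medians over the 12 of 10 and 2 reads. Choice by dark fold favours few wild-type dark reads, and the wild-type red light library had more reads in all. The light difference is therefore a description. The top-ranked gene (1.116 kb) had 3 reads in the dark and 91 after red light in the wild type, against 2836 and 3449 in the mutant. Next in rank, a gene of 1.012 kb had 6 and 72 in the wild type, against 3857 and 5827. A gene of 0.162 kb had 1 and 98 in the wild type, against 577 and 698. A gene of 1.895 kb went the other way in the wild type, with 8 reads in the dark and 0 after red light, against 2478 and 3405 in the mutant. For each of the 4 genes, both pubs hy2 libraries were above both wild-type libraries, which in the dark follows from their choice by dark fold.

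**Figure D2:**
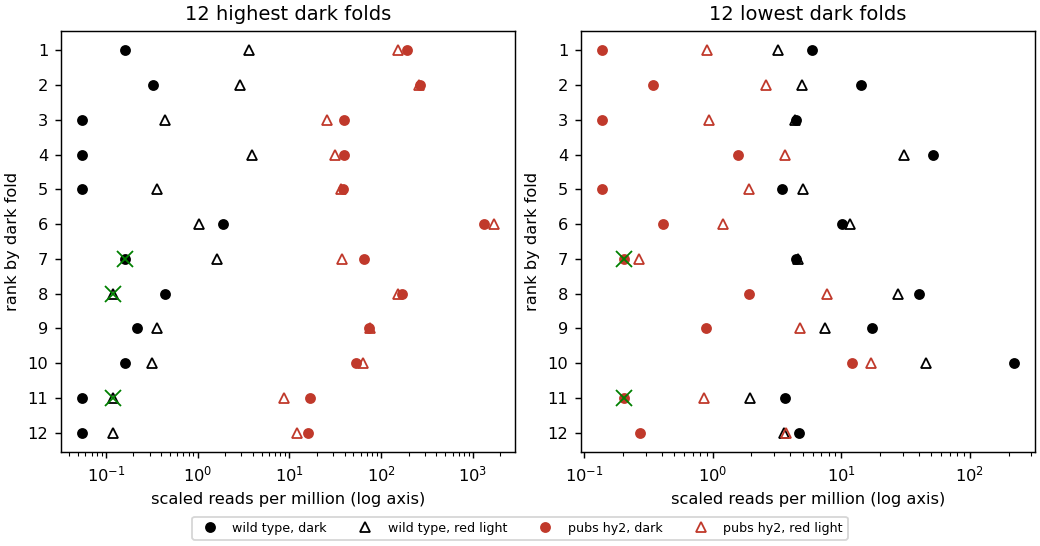
Scaled CPM (log axis) in all 4 libraries for the 12 highest (left) and 12 lowest (right) dark folds among singly mapped genes, ranked by dark fold; circles are dark, triangles red light, black wild type and red pubs hy2, and a green cross marks a library at 0 reads drawn at its floor of 3 reads. On the left the pubs hy2 points stay together and far above wild type in both light conditions, with dark folds from 290.8 to 1185; on the right the pubs hy2 triangles lie nearer to the wild-type points than the pubs hy2 circles do.

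The 12 lowest dark folds ran from 17.2-fold to 43.5-fold lower in the mutant. Wild-type dark reads of these genes ranged from 63 to 4035 and pubs hy2 dark reads from 0 to 178. Here too the floor of 3 reads gives genes at 0 in the mutant a less extreme rank. Their median level was 7.89 RPKM in the wild type and 0.208 RPKM in the mutant. In the red light pair 9 of the 12 were called lower, the median log2 fold was -1.63 against -4.54 in the dark, and the pubs hy2 reads ranged from 6 to 377. A gene of 1.803 kb was low in both pubs hy2 libraries, with 942 and 760 reads in the wild type (dark, then red light) and 23 and 81 in the mutant. The gene ranked last of the 12 (2.966 kb) was low in the dark pubs hy2 library alone, with 86 and 89 reads in the wild type and 4 and 83 in the mutant.

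A gene of 1.443 kb had the most reads among the 12. It had 4035 reads in the wild type in the dark and 1134 after red light, and 178 and 377 in the mutant. On the RPKM scale that was 141.7 and 28.0 in the wild type and 7.31 and 10.1 in the mutant. The wild-type dark library was the high one of the 4, and both pubs hy2 libraries were below both wild-type libraries.

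The 5 singly mapped genes with the highest RPKM in the wild type in the dark had dark folds between 0.142 and 0.564, and 4 of them were called lower. They were picked on a library of the compared pair, which favours low folds, so their direction is a description. Their levels ranged from 6515 to 19325 RPKM in the wild type and from 864.4 to 8727 RPKM in the mutant. They took 6.06% of the reads in the wild-type library in the dark and 2.24% in the pubs hy2 dark library, and 5.22% and 3.402% after red light. Only 1 of the 5 was called lower in the red light pair as well.

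Of these, a gene of 1.011 kb had the lowest fold of the 5. It had 6517 RPKM in the wild type in the dark and 2737 RPKM after red light, against 864.4 and 1783 RPKM in the mutant. Its dark fold was 0.142 (0.140 to 0.145), while in red light the fold was 0.668. The pubs hy2 dark library was the lowest of the 4, and the red light libraries of the genotypes lay nearer to each other than the dark ones.

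The 5 singly mapped genes with the highest RPKM in the mutant in the dark shared 3 members with the wild-type list. The other 2 differed little: 1 (1.210 kb) had 5690 RPKM in the wild type and 6649 RPKM in the mutant, and 1 (0.078 kb) had 4352 and 4660 RPKM. Their folds were 1.25 and 1.15.

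Of the 100 singly mapped genes with the highest RPKM in each dark library, 63 were in both lists, 63.0% of each. In the wild-type list 22 were called lower and 0 higher, and in the pubs hy2 list 25 were called higher and 6 lower. Each list was picked on 1 of the compared libraries, which leans its members towards that direction. The 10 most abundant genes of any mapping class took 11.03% of wild-type reads and 6.39% of pubs hy2 reads in the dark. Yet 50% of the reads were held by 1443 genes in the wild type and by 1356 in the mutant, so below the top of the list reads were spread over slightly fewer genes in the mutant.

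The 8 genes with the largest rise in scaled CPM had dark folds from 3.32 to 696.4, at wild-type levels from 2.30 to 384.2 RPKM and pubs hy2 levels from 538.8 to 2284 RPKM. In the red light pair 7 of the 8 were called higher. The eighth (2.497 kb) had 18931 and 50108 dark reads and a fold of 3.32 (3.26 to 3.37), and a red light fold of 1.964. Together the 8 took 0.280% of wild-type and 2.04% of pubs hy2 reads in the dark. The 8 genes with the largest fall took 5.85% and 1.805%. Their folds ran from 0.142 to 0.441, and 5 of the 8 were called lower in red light.

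The gene with the next largest rise after Pp1s257_73V6 (1.479 kb) had 6336 reads in the wild type in the dark, 11167 in the wild type after red light, 57005 in the mutant in the dark and 87064 in the mutant after red light. Its dark fold was 11.28 (10.99 to 11.58), and its level per length was 217.1 RPKM in the wild type against 2284 RPKM in the mutant. A gene of 2.486 kb had 704, 5349, 23981 and 37120 reads in the same order, so the wild-type red light library stood between the wild-type dark library and both mutant libraries. Its dark fold was 42.7 (39.6 to 46.1), and its red light fold was 7.75. A gene of 1.245 kb had 2295, 9567, 21803 and 35749 reads, with a dark fold of 11.9 and a red light fold of 4.17. For all 3 genes, which were picked from the 8 after their values were seen, the mutant libraries lay above both wild-type libraries.

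Of the 8 largest falls, 3 are given here, also picked after their values were seen. A gene of 1.274 kb had 31072 reads in the wild type in the dark, 34221 in the wild type after red light, 4045 in the mutant in the dark and 9857 in the mutant after red light. It was 6.13-fold lower in the dark pair, and its red light fold was 0.322. A gene of 1.556 kb had 34675, 29349, 5821 and 12144 reads in that order, 4.75-fold lower in the dark. A gene of 0.853 kb had 244551, 191573, 61575 and 147472 reads. It was 3.17-fold lower in the dark, while its red light fold of 0.859 was near 1 and its level per length was 7992 RPKM in the wild type and 6695 RPKM in the mutant there.

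Higher genes were frequent at both ends of the abundance range, lower genes at the low end. With measured singly mapped genes split by mean dark level into 5 bins of equal size, 20.8% of the lowest bin (718 of 3452 genes) were higher and 19.2% (663) lower. In the middle bin, 8.14% were higher and 7.97% lower. In the highest bin, 17.0% (587 of 3451) were higher and 7.13% (246) lower. The median log2 fold was -0.11 in the lowest bin, -0.16 in the middle bin and 0.15 in the highest bin, and a change of scaling shifts these medians together. Genes at least 8-fold higher numbered 190, 82, 44, 39 and 116 from the lowest to the highest bin, and genes at least 8-fold lower 35, 8, 4, 5 and 5.

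**Figure D3:**
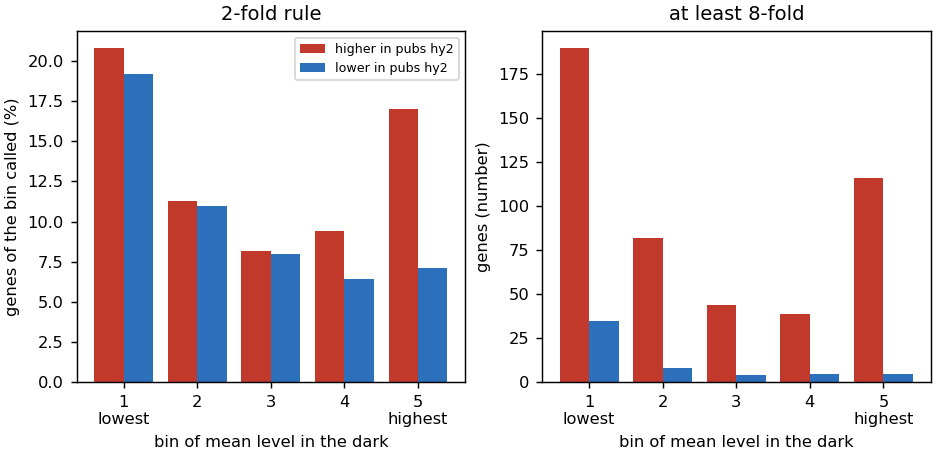
Bars give singly mapped genes higher (red) or lower (blue) in the mutant in the dark for 5 equal bins of mean level, as a percentage of the bin under the 2-fold rule (left) and as numbers at 8-fold or more (right). The highest bin holds 587 higher and 246 lower genes, and 116 against 5 at 8-fold or more.

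Short genes were called more often than long ones. Of 395 measured singly mapped genes up to 0.3 kb, 23.5% were higher and 19.7% lower, and 39 were at least 8-fold higher. Of 816 genes longer than 4 kb, 7.48% were higher and 7.23% lower, and 8 were at least 8-fold higher. Genes shorter than 0.5 kb made up 4.47% of measured genes, 12.7% of those at least 8-fold higher and 15.8% (9 of 57) of those at least 8-fold lower. Without genes under 0.5 kb, 411 genes were at least 8-fold higher and 48 lower.

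Detection also differed between the dark libraries. Of the 30838 singly mapped genes, 20167 had a read in both, 942 only in the wild type and 1485 only in the mutant, although pubs hy2 had fewer reads in all. At 3 reads or more, the numbers were 738 only in the wild type and 1329 only in the mutant. At 10 RPKM or more the order turned, with 1773 genes only in the wild type and 1183 only in the mutant. At 100 RPKM or more it turned again, with 157 and 322. The authors' RPKM uses library totals without TMM factors, and under such totals the median fold lies lower, at -0.18 on the log2 scale.

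With 0 reads in the wild type and at least 50 in the mutant in the dark there were 49 singly mapped genes. The reverse pattern was found for 2. The 49 genes had between 50 and 949 reads in the mutant in the dark, with a median of 86, and 22 of them were shorter than 0.5 kb. In the red light libraries 20 of the 49 were again at 0 in the wild type and 33 had at most 3 reads there, while pubs hy2 had between 23 and 848. Of these genes 45 were measured in the red light pair, and all 45 were called higher in the mutant there. Wild-type reads of the 49 genes after red light had a median of 1 and a maximum of 41. The minimum of 50 reads was thus met mostly through the mutant, which largely fixed that result in advance.

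The 2 genes at 0 in the pubs hy2 dark library had reads after red light. One (2.958 kb) had 82 and 115 reads in the wild type and 0 and 6 in the mutant. The other (0.273 kb) had 67 and 49 reads in the wild type and 0 and 19 in the mutant. Across all singly mapped genes, 0 of those with at least 50 reads in the wild type in the dark were at 0 in both pubs hy2 libraries, and the most wild-type reads of any gene absent from both was 20. In the other direction, 20 genes with at least 50 dark reads in the mutant were at 0 in both wild-type libraries, the largest with 261 reads (0 of 17560594 reads allows up to the floor of 3).

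The red light pair, which has no library in common with the dark pair, was used to see whether genotype differences recurred. Among 17134 singly mapped genes measured in both pairs, 14.6% were higher and 9.61% lower in the mutant in red light. Recurrence went up with the dark fold for higher genes. The same 2-fold limit applied in red light whatever the dark fold, so the rule favours such a rise. The background shares cover all these genes and are not matched to the dark fold. Of genes 2-fold to 4-fold higher in the dark, 828 of 1327 (62.4%) were called higher again. For 4-fold to 8-fold it was 437 of 480 (91.0%), for 8-fold to 16-fold 199 of 208 (95.7%) and above 16-fold 246 of 250 (98.4%). Median log2 folds above 16-fold were 5.04 in the dark and 4.61 in red light. Of 259 genes above 16-fold in the dark, 250 were measured in red light. Genes low in the wild type met that minimum of reads mostly through the mutant.

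For lower genes the shares called again were smaller in each class of fold, a difference that was not tested. Of genes 2-fold to 4-fold lower in the dark, 582 of 1469 (39.6%) were called lower again in red light. For 4-fold to 8-fold it was 133 of 224 (59.4%), for 8-fold to 16-fold 30 of 39 (76.9%), and above 16-fold 10 of 14 (71.4%). In the 4-fold to 8-fold class the median log2 fold went from -2.34 in the dark to -1.17 in red light, against 2.38 and 2.26 for higher genes of that class. Genes chosen for an extreme value in 1 pair tend to be less extreme in another. In the 4-fold to 8-fold class, lower genes rested on a median of 39 pubs hy2 dark reads and higher genes on 117 wild-type dark reads. These medians were 111 and 235 for 2-fold to 4-fold, 12 and 37.5 for 8-fold to 16-fold, and 4.5 and 9 above 16-fold. The part of the choice of genes and of read numbers in the difference was not tested. Called in the opposite direction in red light were 14 of the genes higher in the dark and 45 of those lower in the dark.

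**Figure D4:**
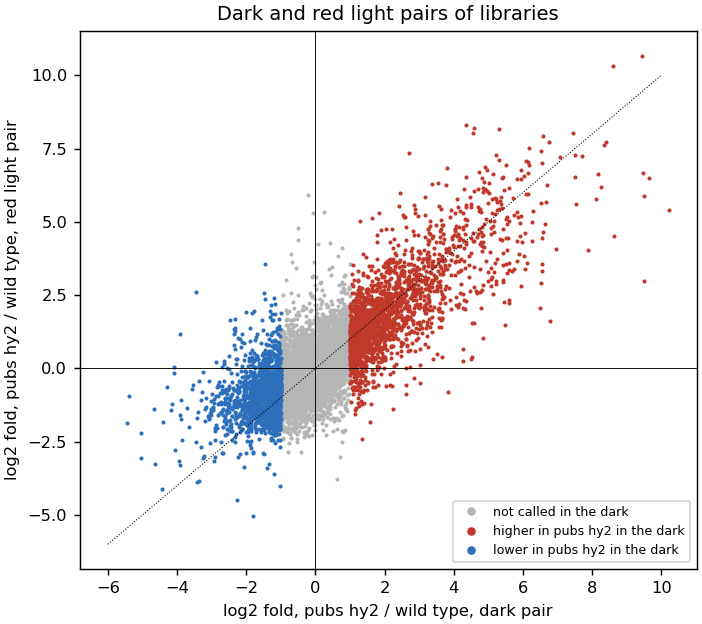
Each point is a singly mapped gene measured in both pairs, with the log2 fold of pubs hy2 over wild type in the dark across and after red light upwards; colours give the call in the dark and the dotted line marks equal folds. Genes higher in the dark (red) follow the line, with 246 of 250 above 16-fold called again; many genes lower in the dark (blue) lie closer to 0 in red light.

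A fit with the terms genotype and light over all 4 libraries gave an estimate of the genotype difference common to both light conditions. With edgeR's quasi-likelihood test and Benjamini-Hochberg adjustment over the 20409 genes tested, 14.6% of measured singly mapped genes were higher and 9.81% lower in the mutant at an adjusted p under 0.05. Since the dark libraries enter this fit, it does not check the dark calls independently. Of the 471 genes at least 8-fold higher in the dark, 437 (92.8%) passed in that direction, and of the 57 at least 8-fold lower, 32 (56.1%) passed. The fit leaves 1 residual degree of freedom. With 1 library per genotype and light condition, this is how far the genotype difference changed between dark and red light, not a spread between replicates. Genes with a weaker red light fold are thus less likely to pass. Median log2 folds in dark and red light were -3.43 and -1.52 for genes at least 8-fold lower, and 4.15 and 3.82 for those at least 8-fold higher. Nothing in the labels says that the libraries came from separate cultures. The p-values therefore speak of these libraries only and may be technical.

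All 12 of the highest dark folds passed this edgeR test, with adjusted p-values from 0.000906 to 0.0335. Of the 12 lowest, 6 passed, with adjusted p-values over all 12 from 0.00651 to 0.314. Pp1s257_73V6 had an edgeR adjusted p of 0.00176, Pp1s25_135V6 of 0.000906 and Pp1s319_5V6 of 0.00724. The last of these was the lowest among the 8 largest falls, of which 5 passed. Pp1s67_30V6 did not pass (adjusted p = 0.130). Of the 5 genes with the highest RPKM in the wild type in the dark, only 1 passed, a gene of 0.800 kb (edgeR adjusted p = 0.0322).

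Called genes were followed by a gene of the same call at a higher rate than genes in general, though most stood alone in the identifier series; no test was made of this. Each identifier joins a scaffold number and a running number, so measured singly mapped genes can be put in order along a scaffold, with other genes skipped. After a gene that was higher in the mutant in the dark, the next gene was also higher in 21.2% of 2228 pairs, against 13.3% after any gene. After a lower gene, the next was lower in 15.9% of 1719 pairs, against 10.3% after any gene. After a higher gene the next was lower in 7.54% of pairs. Of the 2300 higher genes 1459 had no higher neighbour, and of the 1783 lower genes 1286 had no lower neighbour. Neighbours may overlap or be related copies, the libraries keep no strand per the labels' protocols, and the part of either was not tested.

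Runs of neighbours that were all higher reached 6 genes, and runs that were all lower reached 4. Genes not measured or not singly mapped were skipped, so members of a run need not be adjacent. Running numbers went from 57 to 71 in the run of 6. In the 3 runs of 5 they went from 317 to 338, from 16 to 45 and from 18 to 29. The longest run of higher genes was 5 under library totals alone, totals without the 100 most abundant genes and the authors' RPKM. There a member of 2.153 kb (log2 fold 1.09), in place 5 of the run of 6, fell under 2-fold. That split the run of 6, so the longest run there was a different one. A member of 1.155 kb (log2 fold 1.04) in a run of 5 also fell under 2-fold with these scalings. The run of 6 had log2 folds from 1.09 to 4.38 with a median of 2.06, and 5 of its members were called higher in the red light pair too. Its most extreme member (0.699 kb) had 3 and 2 reads in the wild type (dark, then red light) and 50 and 60 in the mutant, a dark fold of 20.9 (6.75 to 104.7). There were 3 runs of 5 higher genes. In 1 of them, with a median log2 fold of 1.72, 2 of 5 members were called higher in red light. Genes at least 8-fold higher were spread over 221 of the 545 scaffolds with measured genes, with at most 9 on 1 scaffold.

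Genes with shared reads are given apart, because their values depend on how the authors assigned such reads. Counting all 18266 measured genes of any class, 24.4% were called in the dark, 13.7% higher and 10.6% lower. Of 767 measured genes with a share between the limits of 10% and 90%, 31.0% were called (133 higher, 17.3%, and 105 lower, 13.7%). Of 243 genes whose multi-mapping share was 90% or more in a dark library, 52.3% were called (74 higher, 30.5%, and 53 lower, 21.8%). At least 8-fold apart were 20.6% of these 243 genes, against 3.06% of singly mapped genes.

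**Figure D5:**
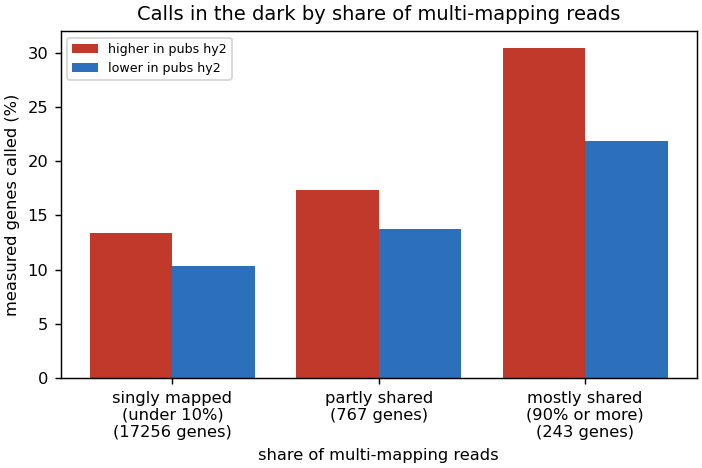
Bars give the percentage of measured genes called higher (red) or lower (blue) in the mutant in the dark, by the share of their reads that map to several places. Among 243 genes with 90% or more shared reads, 30.5% were higher and 21.8% lower, against 13.3% and 10.3% of 17256 singly mapped genes.

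Within this class, genes of equal length were also looked at with their reads summed, for the 3 lengths at which the genes described had a partner. Adding genes of opposite direction brings a fold nearer to 1 whatever the genes are, so the sums are values only. Of 2 such genes of 2.160 kb, 1 had 0 reads in the wild type and 584 in the mutant in the dark, and the other had 1234 and 0. Against the floor of 3 reads they were 244.0-fold higher and 328.2-fold lower, with counting intervals that began at 197.8-fold and 266.5-fold. Their summed reads were 1234 and 584, a fold of 0.593 (0.537 to 0.655). A gene of 2.069 kb had 3958 reads in the wild type and 1 in the mutant, but the 5 genes of that length together had 13901 and 9748, a fold of 0.879 (0.856 to 0.902). The 2 genes of 0.905 kb together had 1330 and 369 reads, a fold of 0.348 (0.309 to 0.391). Of the 52 sums over genes of this class with equal length, 20 (38.5%) were 2-fold or more apart. Taken singly, 63 of the 112 genes in these sums (56.25%) were called.

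The 3 singly mapped genes nearest to the limit of 10% shared reads had multi-mapping shares of 9.75%, 9.82% and 9.94% in the higher of the dark libraries and dark folds of 1.51, 0.455 and 17.5. The 3 nearest on the other side had shares of 10.2%, 10.3% and 10.3% and folds of 0.388, 0.675 and 1.12. Near the 2-fold limit lay 287 higher genes with folds of 2 to 2.2 and 431 lower genes of that size.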

How the data were processed

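Messenger RNA of 4 moss libraries was measured. Poly-A RNA was, per the labels' protocols, fragmented, copied by random priming, barcoded and amplified by 18 PCR cycles. The authors deposited estimated counts (reads per gene, rounded here to whole numbers), RPKM, gene lengths, and the multi-mapping share of each gene's reads as a fraction, per the file headers. Aligner, genome build and annotation version are not given in the sources used here. Libraries were scaled by TMM factors (1.04 for wild type and 0.969 for pubs hy2 in the dark) from edgeR 4.0.16 in R 4.3.3. DESeq2 1.42.0 and limma 3.58.1 gave alternatives, and the remaining steps used Python 3.11.15 with scipy 1.17.1. On simulated data of the dark pair, the 2-fold rule recovered 98 of 100 genes changed 2.5-fold and 100 of 100 changed 4-fold, with 10 false calls among 18271 genes. The spread between cultures cannot be estimated from 1 library a side. The simulation therefore gives no error rate for the dark calls and shows only how the rule acted on the simulated reads. Intervals and floors cover counting error of reads only, since PCR copies carry no molecular identifiers. Genes described were the 12 highest and 12 lowest folds, the 8 largest rises and falls in scaled reads, the 5 highest RPKM per dark library, the longest runs of neighbours, genes nearest to the multi-mapping limit and extreme multi-mapping genes. The comparison, its rules and these lists were chosen with earlier results of these data known.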

Additional observations from a re-analysis of the deposited data

Results flagged for a closer look

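Among the genes described, 4 that were called in the dark had a log2 fold of the opposite sign in red light. With 1 library per group these differences between light conditions were not tested. A singly mapped gene of 2.966 kb had a log2 fold of -4.10 in the dark and 0.06 after red light, a shift of 4.16. The red light interval of its fold, 0.763 to 1.42, held 1. A singly mapped gene of 1.780 kb in a run of 5 higher neighbours had log2 folds of 1.18 and -0.45, a shift of -1.63, from 117 and 311 reads in the wild type and 212 and 204 in the mutant. The other 2 drew at least 90% of their reads in a dark library from shared sequence. A gene of 2.160 kb shifted by 9.49, with 0 dark reads in the mutant set to 3. It alone among the 4 was called in the opposite direction in red light, at a fold of 2.19. A gene of 0.905 kb shifted by 8.12 on the same terms, at a red light fold of 1.45.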

How the results depend on the processing

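No paired analysis was possible because each group is 1 library and the labels give no replicate numbers, other than the fit with genotype and light, which sets the genotypes against each other within each light condition. Moving the limit to 1.5-fold gave 7533 calls in the dark (3661 higher and 3872 lower), and 4-fold gave 1250 (958 and 292). For differences of at least 8-fold, a minimum of 200 reads gave 317 (291 higher and 26 lower), no minimum gave 850 (743 and 107), and 20 reads gave 92 lower genes. More or fewer genes enter under these minimums by construction. The median log2 fold was -0.184 with library totals alone, -0.246 with totals that leave out the 100 most abundant genes, and -0.176 with the authors' RPKM. Counts of calls under other scalings, multi-mapping limits, a length limit, wild-type reads thinned to the mutant's total and an assumed coefficient of variation of 0.2 stayed within 1.5 times the counts reported. Of the 55 singly mapped genes described that were called, 2 fell under 2-fold with library totals alone, with totals without the 100 most abundant genes and with the authors' RPKM, and 0 with the other 2 scalings. Both belong to runs of higher neighbours, and the longest run of lower genes was 5 with totals without the 100 most abundant genes and 4 otherwise. The genotype term gave 3659 to 5177 genes over its alternatives, against 4707. Depth limits the lowest levels, where 3 reads set the floor. Alternatives for the red light pair and for neighbours, and the count of genes under 2-fold, were chosen after the data were seen.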
